A study of Blastobotrys raffinosifermentans with 8 samples.

Results

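Protocatechuic acid is a hydroxylated aromatic acid, and its carbon enters central metabolism only after the ring has been opened and the chain has been cut into small pieces. In the route drawn for this yeast, 3 genes whose identifiers lie outside ARAD1D stand at the lower end of the tannin pathway, and their expression is described here. They are ARAD1C17776g, annotated as an aldehyde dehydrogenase, ARAD1A05764g, annotated as an acetyl-CoA synthetase, and ARAD1A19074g, for which no annotation was used. They were taken by identifier from a drawing of the pathway that the study based on its array results, and make up 3 of the 6160 identifiers on the array and 30 of its 56312 probes. All 3 genes passed the filter on dim probes, as 6036 identifiers did.

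Wild-type Blastobotrys raffinosifermentans LS3, a xerotolerant yeast, was grown overnight on glucose and nitrate, pelleted and shifted to fresh minimal medium. The new medium held 1% glucose and 0.5% protocatechuic acid (PA) or 1% glucose alone (Glc), and RNA was taken at 4 times of incubation, namely 15 min, 30 min, and later 2 h and 5 h. Each medium and time had 1 array and no replicate. All cultures, those with PA too, carried glucose and had gone through a change of medium. The question put by the comparison is which genes answer to the aromatic acid when glucose is also present.

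In the last steps of such pathways an aldolase releases pyruvate and acetaldehyde. An aldehyde dehydrogenase oxidises the acetaldehyde to acetate, and an acetyl-CoA synthetase joins acetate to coenzyme A at the cost of ATP, which gives the acetyl-CoA of the citric acid cycle and of lipid synthesis. Both enzymes also serve the ordinary use of ethanol and acetate, and in Saccharomyces cerevisiae some of the genes for them are repressed by glucose.

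Each gene was read by 10 oligonucleotides of 60 bases. None overlapped another of the same gene, if the number that ends a probe name is its start in the gene. A level is the median over these probes of the background corrected, quantile normalized log2 intensity, and levels are compared only between arrays for the same gene. The SD given with a difference is the spread of that difference over the 10 probes, which measures how far the probes differ from each other and not how far cultures would. Over the arrays, the median intensity of a spot was between 71.5 and 96 against a local background of 28 to 33, and between 59% and 70.2% of the yeast spots were well above background. No spot was saturated. The PA and Glc arrays lay in different rows of 1 slide and the 4 times in its 4 columns, so that medium cannot be told apart from row, nor time from column.

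The aldehyde dehydrogenase gene ARAD1C17776g had its highest level at the first harvest in both media, and with quantile scaling a lower one at each later harvest. With PA its log2 level was 9.57 at 15 min and 7.41 at 30 min, then 6.89 at 2 h and finally 6.77 at 5 h. With Glc it was 9.75 at 15 min and 8.32 at 30 min, then 6.90 at 2 h and finally 6.59 at 5 h. The 15 min levels stood apart from all later ones, and the media were level at 2 h. With arrays centred on the spike-in control probes, RNA of no yeast origin added to each sample, the step from 30 min to 2 h with PA was -0.12 and that from 2 to 5 h with Glc was 0.06, so the order of the 2 h and 5 h levels with Glc rests on the scaling. All 10 probes were well above background on all 8 arrays, and the median spot intensity was 772, 148, 139 and 108 with PA, against 857, 237, 121 and 110 with Glc, at the 4 times in order. At 5 h the log2 level was 2.80 lower than at 15 min with PA (6.96-fold) and 3.16 lower with Glc (8.97-fold). A range over the 4 times as wide as this was found in 1.61% of all genes tested with PA and in 0.729% with Glc. The size of the fall depends on the processing. With an offset of 0 in the background correction every step was larger in size. The steps were then -2.57, -0.82 and -0.20 with PA and -1.60, -1.96 and -0.59 with Glc. With arrays centred on the spike-in control probes the Glc steps were -1.62, -1.16 and 0.06.

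**Figure D1:**
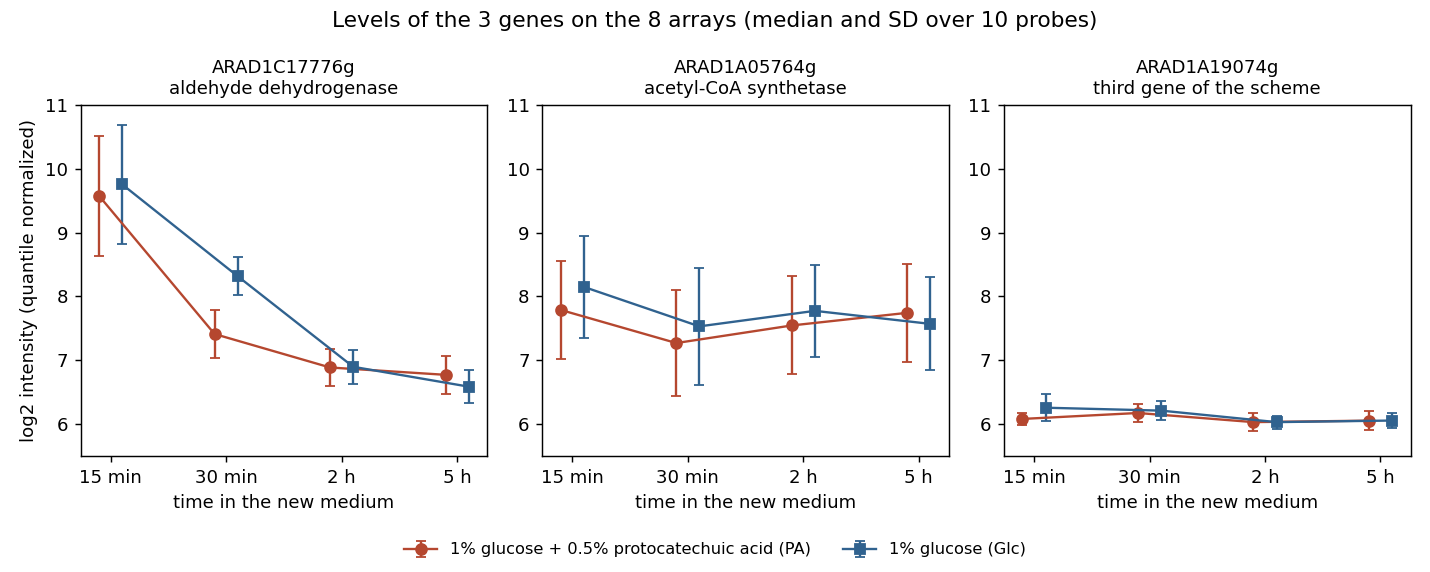
Log2 level of each gene (y axis, quantile normalized intensity) at the 4 times (x axis), PA as circles left of Glc as squares, with the SD of the level over 10 probes, which includes the unequal brightness of probes. ARAD1C17776g stood at 9.57 with PA and 9.75 with Glc at 15 min and at 6.77 with PA and 6.59 with Glc at 5 h, ARAD1A05764g stayed between 7.27 and 8.15, and ARAD1A19074g between 6.03 and 6.26.

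By 30 min the level had fallen further with PA. From 15 to 30 min the step of ARAD1C17776g was -2.16 ± 1.14 with PA and -1.44 ± 0.90 with Glc (SD over 10 probes), which are 4.47-fold and 2.71-fold lower levels at 30 min. From 30 min to 2 h the larger step was that with Glc, with values of -0.52 ± 0.19 with PA and -1.42 ± 0.26 with Glc, and all 10 probes were lower at 2 h in both media. By 30 min the PA culture had gone through 77.2% of its log2 difference between 15 min and 5 h, the Glc culture through 45.4%. By 2 h the shares were 95.9% with PA and 90.2% with Glc, and the last step was -0.11 ± 0.12 with PA and -0.31 ± 0.14 with Glc, all with quantile scaling. With arrays centred on the spike-in control probes the last step was -0.51 with PA and 0.06 with Glc. The order of the shares by 2 h turned with that centring, so it rests on the scaling.

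Across all genes, a step of at least 1 in size, the fold used here for values with no replicate, was met by 11.7% with PA and 7.99% with Glc from 15 to 30 min, by 4.85% and 3.48% from 30 min to 2 h, and by 3.06% and 3.84% from 2 to 5 h. Of the 18 steps of the 3 genes, 3 reached it. These were the first step of ARAD1C17776g in both media and its second step with Glc. A first step of -1 or lower in both media was seen in 2.29% of the genes.

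The difference between the media for ARAD1C17776g was largest at 30 min, when the PA level stood 0.90 ± 0.27 below the Glc level, 0.534 of it on the linear scale. All 10 probes were lower with PA at 30 min, each by 0.53 or more, and 0.315% of all genes had a difference as low or lower. With an offset of 0 in place of 50 in the background correction the 30 min difference was -1.17. With the processed signal of the scanner software, set against the 75th percentile of each array in place of normexp and quantile scaling, it was -1.41. At 15 min the difference was -0.18 ± 0.06, with all 10 probes lower. At 2 h it was -0.01 ± 0.11 and at 5 h 0.18 ± 0.11, with 0 of 10 probes lower at 5 h, and both signs turned with arrays centred on the spike-in control probes. In the order of the 8 levels, 5 of the 7 gaps between neighbours exceeded the SD over probes, and those from PA at 2 h to Glc at 2 h and from PA at 5 h to PA at 2 h did not.

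**Figure D2:**
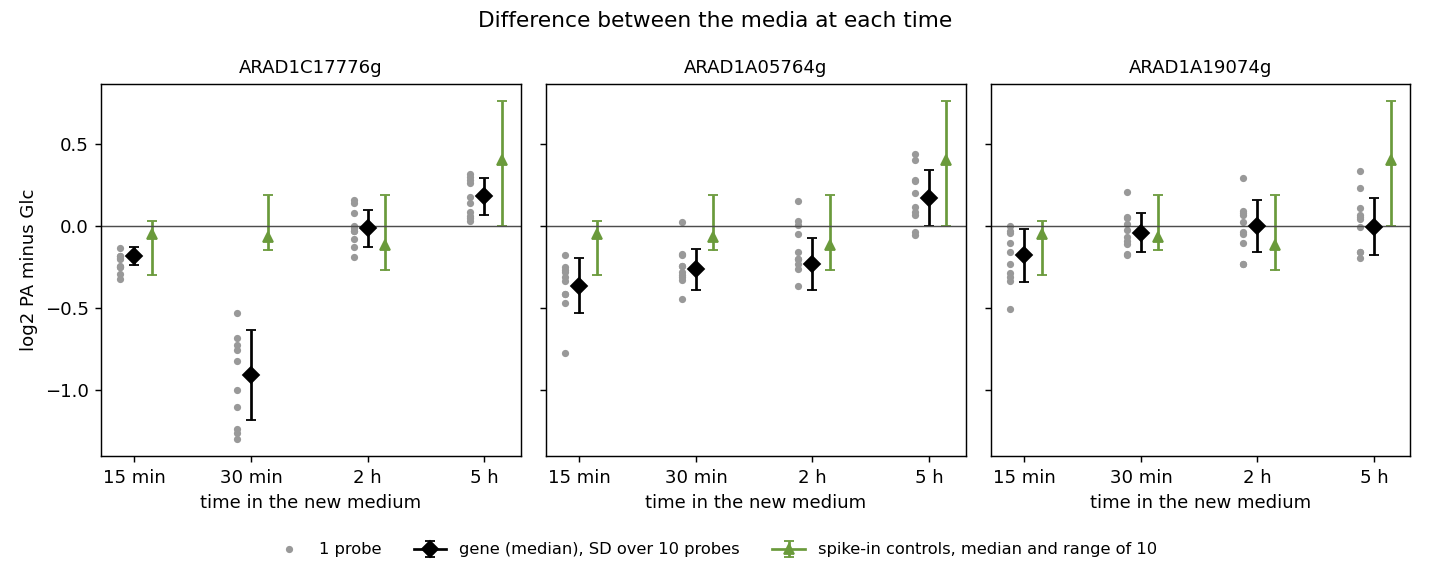
Log2 PA minus Glc (y axis) at each time (x axis) for the 3 genes: grey points are single probes, diamonds the gene with the SD over 10 probes, and triangles the spike-in control probes with their median and range over 10. The 30 min value of ARAD1C17776g, -0.90, lies below all control probes, and the 5 h values of the genes, 0.18, 0.17 and -0.0015, lie below the control median of 0.40.

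The probes of ARAD1C17776g did not move alike in the first step. The 2 probes that start at bases 262 and 530, if the number that ends the probe name is its start in the gene, a reading that the files do not state, had steps of 0.14 and -0.17 with PA and of 0.35 and 0.26 with Glc. The other 8, which start between 668 and 1423, had steps between -2.96 and -1.34 with PA and between -1.92 and -0.46 with Glc. On this reading the step was lower the nearer a probe lay to the end of the gene, with a Spearman correlation between that number and the step of -0.98 with PA and -0.92 with Glc over the 10 probes of these arrays. The probes share 2 arrays per step, and the grouping was made after their values had been seen. Their levels differed more before the step than after it. With PA the probes at 530 and 1423 stood at 7.92 and 10.85 at 15 min, and at 7.75 and 7.89 at 30 min. With Glc they stood at 8.17 and 11.04 at 15 min, and at 8.43 and 9.15 at 30 min. The SD of the level over the 10 probes went from 0.94 to 0.38 with PA and from 0.93 to 0.29 with Glc.

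**Figure D3:**
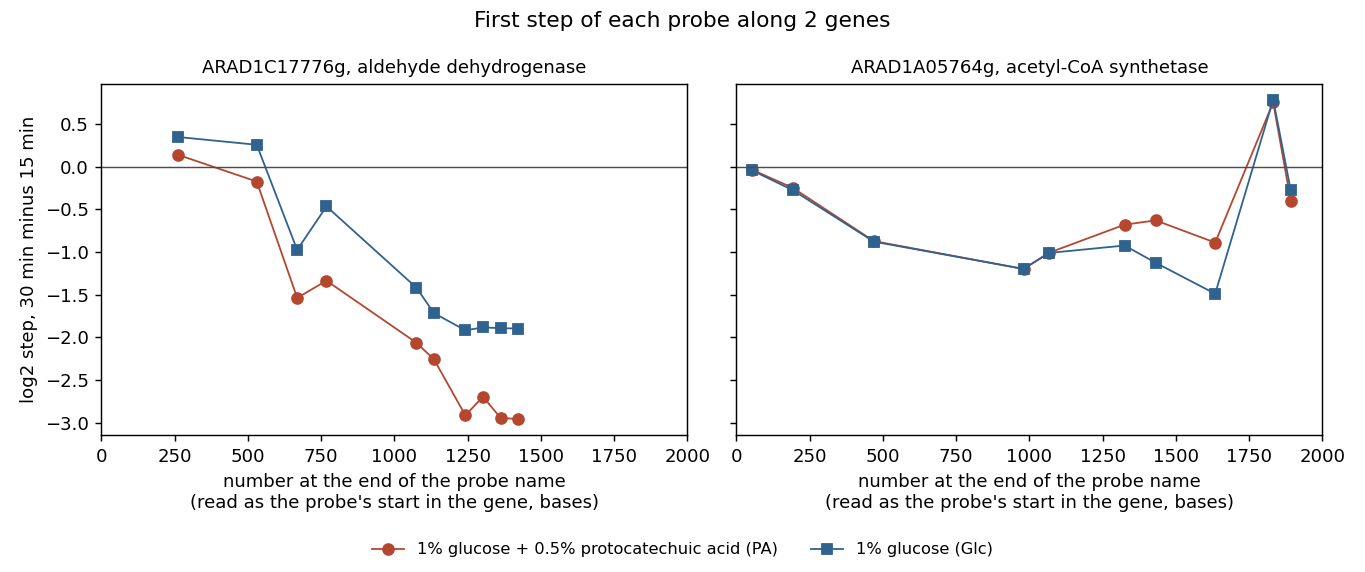
Log2 step from 15 to 30 min of each probe (y axis) by the number that ends its name (x axis, read as its start in the gene in bases), PA as circles and Glc as squares. In ARAD1C17776g the step was lower along the gene, down to -2.96 with PA and -1.92 with Glc, while in ARAD1A05764g the probe at 1832 was 0.76 higher with PA and 0.79 higher with Glc and the other 9 were lower.

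On the same reading the gap between the ends of the gene was uncommon on the array, among genes not matched for the size of their step. The step itself was uncommon too, with 1.33% of all genes as low or lower with PA and 2.53% with Glc. Whether the gap goes beyond what so large a step or the 15 min levels bring was not tested. The mean step of the 3 probes nearest the end minus that of the 3 nearest the start was -2.34 with PA and -1.77 with Glc. Among the 942 genes with at least 8 probes that were all well above background on all 8 arrays, 0.743% with PA and 0.743% with Glc had a gap as low or lower, and the median gap was -0.23 with PA and -0.19 with Glc. In the later steps the gap was 0.25 with PA and -0.37 with Glc from 30 min to 2 h, and -0.18 with PA and -0.13 with Glc from 2 to 5 h. The difference between the media at 30 min showed a smaller gap of the same sign, -1.22 on average over the 3 probes nearest the end and -0.65 over the 3 nearest the start.

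The acetyl-CoA synthetase gene ARAD1A05764g varied far less over time than ARAD1C17776g. With PA its log2 level was 7.79 at 15 min and 7.27 at 30 min, then 7.55 at 2 h and finally 7.74 at 5 h. With Glc it was 8.15 at 15 min and 7.53 at 30 min, then 7.77 at 2 h and finally 7.57 at 5 h. The median level was lowest at 30 min in both media, though with Glc the 5 h level was close to it. With the brightest probe alone the Glc step from 30 min to 2 h was -0.25, so there the lowest level came later. The ranges over the 4 times were 0.52 with PA and 0.62 with Glc. They were reached or passed by 46.1% and 30.6% of all genes, whose median ranges were 0.46 with PA and 0.35 with Glc. All 10 probes were well above background on all 8 arrays.

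The PA level of ARAD1A05764g was below the Glc level at the first 3 times and above it at the last, but the sign turned at 2 h and at 5 h when arrays were centred on the spike-in control probes. The difference was -0.36 ± 0.17 at 15 min with all 10 probes lower, -0.26 ± 0.12 at 30 min with 9 lower, -0.23 ± 0.16 at 2 h with 7 lower, and 0.17 ± 0.17 at 5 h with 2 lower. On the linear scale the 4 PA levels were 0.779, 0.835, 0.854 and 1.13 of the Glc levels. For scale, 2 of its probes were printed on a pair of spots, which differed by a median of 0.27 for the probe at 1431 and of 0.10 for that at 1325. In the order of the 8 levels 3 of the 7 gaps exceeded the SD over probes.

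The first step of ARAD1A05764g was -0.52 ± 0.57 with PA and -0.62 ± 0.68 with Glc, with 9 of 10 probes lower at 30 min in both media. The exception was the probe at 1832, which was higher at 30 min by 0.76 with PA and by 0.79 with Glc, while its neighbour at 1892 was lower by 0.40 with PA and by 0.28 with Glc. From 30 min to 2 h the step was 0.28 ± 0.31 with PA and 0.24 ± 0.42 with Glc. From 2 to 5 h the step was 0.20 ± 0.20 with PA, up in 9 of 10 probes, and -0.20 ± 0.14 with Glc, down in 8 of 10. The spike-in control probes had a median step of 0.18 with PA and -0.20 with Glc over the same time. With arrays centred on them both signs turned, to -0.22 with PA and 0.26 with Glc.

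ARAD1A19074g was dim in every culture. With PA its log2 level was 6.08, 6.18, 6.03 and 6.06 at the 4 times, and with Glc it was 6.26, 6.21, 6.03 and 6.06. With PA 1, 4, 2 and 1 of its 10 probes were well above background at the 4 times, against 6, 3, 2 and 1 with Glc. No probe was well above background on all 8 arrays and 3 were on none. Its median spot intensity was 61.5 to 71 with PA and 62.5 to 71 with Glc.

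The differences of ARAD1A19074g between the media were -0.18 ± 0.16 at 15 min, with 9 of 10 probes lower with PA, -0.04 ± 0.12 at 30 min, and under 0.01 in size at 2 and 5 h. Its steps lay between -0.14 and 0.09 with PA and between -0.18 and 0.02 with Glc. In the order of its 8 levels 0 of the 7 gaps between neighbours exceeded the SD over probes, but some levels further apart did differ by more, as in the step from 30 min to 2 h with Glc, -0.18 ± 0.09 with all 10 probes lower. The offset of 50 added in the background correction compresses log2 differences of so dim a gene towards 0. With an offset of 0 the 15 min difference was -0.58 ± 0.47, and with the processed signal set against the 75th percentile, which changes the background method and the scaling together, it was -1.40 ± 0.79.

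**Figure D4:**
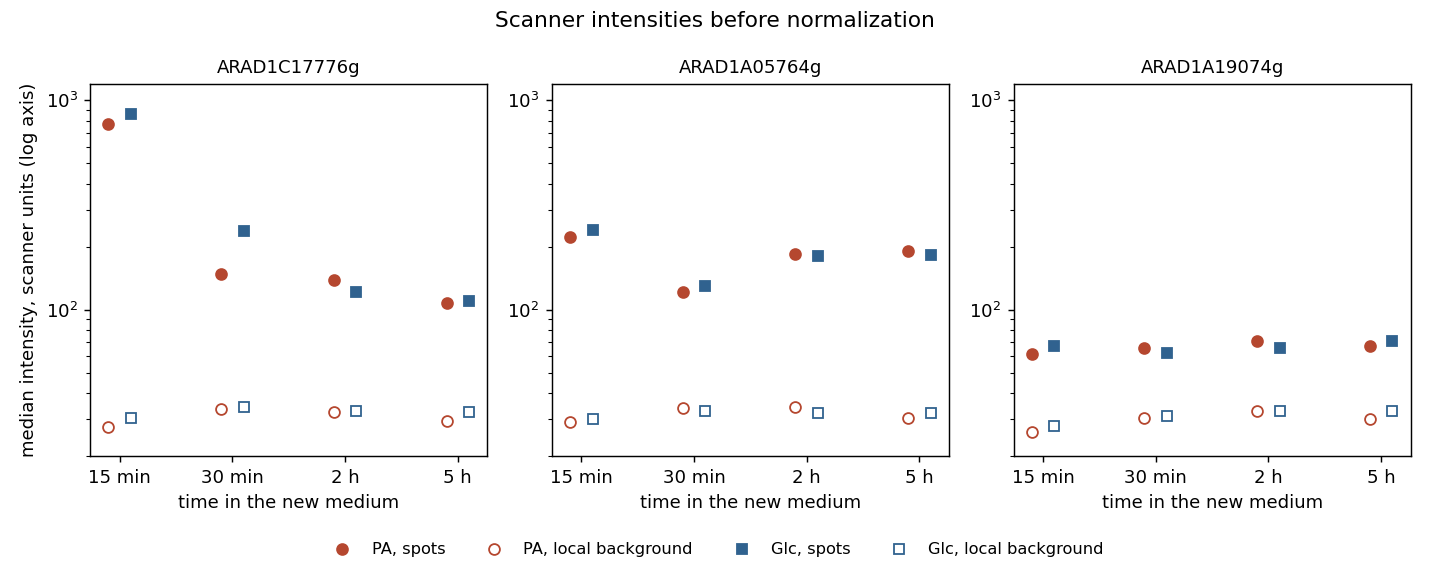
Median scanner intensity of the spots of each gene (filled) and of their local background (open) on a log axis, PA as circles left of Glc as squares, by time. ARAD1C17776g had 772 with PA and 857 with Glc at 15 min and 108 with PA and 110 with Glc at 5 h, and ARAD1A19074g lay between 61.5 and 71 on all 8 arrays over a local background of 26 to 33.

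At a single time, 0 of the 12 differences between the media reached 1 in size with the reported processing. That mark was passed by 4.71% of all genes at 15 min and 1.41% at 30 min, then by 1.44% at 2 h and 1.21% at 5 h. The count rests on the processing. The 30 min difference of ARAD1C17776g was -1.07 with the authors' deposited value table and -1.07 with an offset of 16. It was -1.17 with an offset of 0, -1.41 with the processed signal and -1.26 with the brightest probe. It stayed under 1 in size with median scaling (-0.76), spike-in centring (-0.80) and the mean over probes (-0.94). The 15 min difference of ARAD1A19074g was -1.40 with the processed signal. Features with no yeast origin moved as well. The 10 spike-in control probes differed between PA and Glc by a median of -0.04 at 15 min, -0.06 at 30 min and -0.11 at 2 h, but of 0.40 at 5 h, with a range of 0.0042 to 0.77. The 5 h differences of the 3 genes, at most 0.18, lay below that median, and with arrays centred on these controls they became -0.32 for ARAD1C17776g, -0.39 for ARAD1A05764g and -0.41 for ARAD1A19074g, beside a median of -0.45 over all genes. With that centring the 2 h differences became 0.25, 0.09 and 0.11 for the 3 genes in the same order, beside a median of 0.15 over all genes, so the direction at 2 and 5 h rests on the scaling. At 15 and 30 min it did not turn, and the 30 min difference of ARAD1C17776g was -0.80.

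Over the 4 times together the effect of the medium was not past the threshold for any of the 3 genes. In limma with the harvest time as a block, the mean difference PA minus Glc was -0.23 (95% interval -0.74 to 0.28) for ARAD1C17776g, -0.17 (-0.44 to 0.10) for ARAD1A05764g and -0.05 (-0.20 to 0.09) for ARAD1A19074g, each with a Bonferroni adjusted p of 1 and a Benjamini-Hochberg adjusted p of 0.87. ARAD1C17776g and ARAD1A05764g were lower with PA at 3 of the 4 times. Without the 30 min arrays the mean difference of ARAD1C17776g was -0.0020, so that it rested on that time. Across all genes 0% passed either adjustment, with 304 genes at an unadjusted p under 0.05. An exact sign-flip permutation test over the 4 times gave two-sided p values of 0.5, 0.25 and 0.25 for the 3 genes, and the smallest value that 4 pairs allow is 0.125.

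The time steps averaged over both media were tested in the same limma fit, with the 2 media standing in for replicates. For ARAD1C17776g the first step was -1.80 ± 0.27 (SE), with a Bonferroni adjusted p of 1 and a Benjamini-Hochberg adjusted p of 0.03. The first step passed the Bonferroni adjustment in 0.182% of all genes and the Benjamini-Hochberg adjustment in 9.49%. Its second step was -0.97 ± 0.27 (SE, Benjamini-Hochberg adjusted p 0.17, limma), where 0.0497% and 2.45% of all genes passed, and its last step -0.21 ± 0.27 (SE, Benjamini-Hochberg adjusted p 0.92, limma), where 0.0166% and 0.249% passed. The first step of ARAD1A05764g was -0.57 ± 0.15 (SE, Benjamini-Hochberg adjusted p 0.08, limma), and no other step of that gene or of ARAD1A19074g had a Benjamini-Hochberg adjusted p under 0.375.

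The upper part of the same pathway was set beside the 3 genes. The list compared held 7 genes from tannase to aldolase, and not the gallic acid decarboxylase gene AGDC1. Of the 7, 2 were at least 1 higher with PA at 30 min and 2 h, and 1 of them also at 5 h. A difference of at least 1 in size was met by 1.41% of all genes at 30 min, 1.44% at 2 h and 1.21% at 5 h. Both genes are placed at the 2-oxopent-4-enoate hydratase step, where water is added to the chain before the aldolase acts. ARAD1A09218g had levels of 7.37, 9.24, 9.21 and 8.73 with PA against 6.56, 6.82, 7.36 and 7.31 with Glc at the 4 times. ARAD1C00330g, which the study also names among its hydroxylase candidates, so that its enzyme is unsettled, had 6.76, 7.69, 7.58 and 6.42 with PA against 5.93, 5.91, 5.99 and 5.91 with Glc, where 0 of its 10 probes were well above background on any Glc array, so that its difference is known only from below. At 30 min the difference of ARAD1A09218g was 2.43 ± 0.66 (SD over 10 probes), against -0.90 for ARAD1C17776g, -0.26 for ARAD1A05764g and -0.04 for ARAD1A19074g.

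The aldolase step itself, under the identifier ARAD1D18348g, differed between the media by -0.29, -0.36, -0.04 and 0.15 at the 4 times, values of the size found for ARAD1A05764g. Whether this identifier and ARAD1D18458g (ACDO1) on the array stand for the genes the study names was not settled, and both are given as the array names them. The median over the 7 genes at 30 min was 0.10 and that over the 3 lower genes -0.26, beside -0.02 over all genes tested. The medians of the mean difference over the 4 times were 0.08, -0.17 and -0.02 in the same order. Of the 7, ARAD1A06094g, ARAD1A19822g, ARAD1D18458g and ARAD1A15158g were dim at 30 min, with at most 4 of 10 probes well above background on either array. So was ARAD1A19074g among the 3 lower genes. The offset in the background correction compresses differences of such dim genes towards 0. The medians of 0.10 and 0.08 are the values of ARAD1A06094g and ARAD1A19822g, so they rest on dim genes. None of the 7 passed an adjusted threshold for the medium in limma (Benjamini-Hochberg adjusted p of 0.59 or more), as none of all genes did. The study, by contrast, reports significant upregulation by protocatechuic acid for AGDC1, ACDO1 and both tannase genes. It reports the same for its oxalocrotonate decarboxylase, hydratase and aldolase genes. It does not state the contrast behind that result.

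The course most like that of ARAD1C17776g over the 8 arrays, by Pearson correlation among 3140 genes with at least 3 probes and a median probe well above background on every array, was that of ARAD1B17314g (r = 0.99). Its levels were 8.90, 7.93, 7.62 and 7.27 with PA and 8.87, 8.23, 7.45 and 7.35 with Glc. For ARAD1A05764g it was ARAD1C40436g (r = 0.95), with 7.28, 6.28, 6.87 and 7.22 with PA and 7.92, 6.71, 7.67 and 7.06 with Glc. For the dim ARAD1A19074g the nearest among 3141 genes was ARAD1A13442g (r = 0.97), whose levels also spanned little, from 6.35 to 6.58 with PA and from 6.32 to 6.72 with Glc. By the distance between centred courses another gene came first for each of the 3, so the choice of a nearest gene rests on the measure.

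The genes beside the 3 by identifier number, 5 on either side, were counted as well. Around ARAD1C17776g the first step of the 10 neighbours was between -0.76 and 0.94 with PA, against -2.16 for the gene itself, and between -1.08 and 0.82 with Glc, against -1.44. At 30 min their differences between the media had a median of 0.05 and a range from -1.01 to 0.21, with 1 of 10 past 1 in size. Around ARAD1A05764g 0 of 10 and around ARAD1A19074g 0 of 10 were past that mark at 30 min, with ranges from -0.40 to 0.28 and from -0.46 to 0.25. Of all genes, 1.41% were past it at 30 min. At 15 min 1, 2 and 1 of 10 neighbours of ARAD1C17776g, ARAD1A05764g and ARAD1A19074g were past it, beside 4.71% of all genes.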

How the data were processed

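The arrays were Agilent 8 x 60k single-dye arrays. Per the file headers, the deposited intensity values are those of the scanner software (Agilent Feature Extraction 11.5.1.1.), before any normalization between arrays. The authors' deposited value table is on the log2 scale after normexp and quantile normalization, and served as an alternative. With limma, normexp (offset 50) was fitted to all spots, and values were put on the log2 scale. Control spots were left out, and the log2 values were quantile normalized. Spots flagged as outliers were set to missing, and values were averaged over spots of a probe and summarised as the median over probes. Genes were kept where 1 probe or more was well above background on 2 or more arrays, and were fitted with time and medium as terms (3 residual degrees of freedom) and adjusted by Bonferroni, as the study's methods name, and by Benjamini-Hochberg. The fit was tested on simulated data. Single times and single media have 1 array each and no test. The genes named are the 3 members, 7 genes of the upper pathway and, for each member, the gene of highest Pearson correlation, and neighbours are counted. The members and lists were chosen with earlier results of these data known. The alternatives covered the background correction, the scaling, the summary over probes, the filter, the adjustment and the terms of the fit. R 4.3.3, limma 3.58.1, Python 3.11.15 and matplotlib 3.10.9 were used.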

Additional observations from a re-analysis of the deposited data

Results flagged for a closer look

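For ARAD1A05764g the step from 2 to 5 h was 0.20 with PA and -0.20 with Glc, opposite directions that differ by 0.40. The spike-in control probes moved by a median of 0.18 with PA and -0.20 with Glc over this step, and with arrays centred on them both signs turned, to -0.22 with PA and 0.26 with Glc. For ARAD1A19074g the first step was 0.09 with PA and -0.05 with Glc, which differ by 0.14, and 0.11 with PA and 0.09 with Glc with that centring. The PA minus Glc difference of ARAD1C17776g was 0.18 at 5 h and -0.01 at 2 h, 0.20 apart, and both signs turned with that centring, to -0.32 at 5 h and 0.25 at 2 h. That of ARAD1A19074g turned its sign between 30 min and 2 h and again between 2 and 5 h, by 0.037 and by -0.0015. With 1 array per medium and time, none of these differences between media or times was tested.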

How the results depend on the processing

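Some alternatives change only the adjustment, the variance estimate, the filter or a term of a balanced fit. They leave the value itself as it was, so its direction could not turn. With these counted in, 163 of 172 limma values of the 3 genes under the alternatives kept the direction of the reported value, and 2 passed the threshold. Both were the first step of ARAD1C17776g, -1.80 (Benjamini-Hochberg adjusted p 0.030) and, with arrays centred on the spike-in controls, -1.96 (Bonferroni adjusted p 0.013, in limma). The 9 values of opposite sign follow. For ARAD1A05764g the last step was 0.044 with the processed signal (scaled to each array's 75th percentile), 0.026 with median scaling, 0.023 with spike-in centring, 0.043 with the mean over probes and 0.11 with the brightest probe, which also gave -0.10 for its second step. For ARAD1A19074g the last step was -0.26 with the processed signal, and the brightest probe gave 0.11 for the medium and -0.015 for the first step. With each harvest time left out in turn, the mean difference between the media was between -0.37 and -0.0020 for ARAD1C17776g, -0.28 and -0.11 for ARAD1A05764g, and -0.071 and -0.013 for ARAD1A19074g. The 30 min difference of ARAD1C17776g was -1.41 with the processed signal and -1.26 with its brightest probe.

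Genes past the threshold for the first step numbered 11 as reported, and 23 with an offset of 16, 32 with none, 21 with the processed signal, 87 with spike-in centring, 23 with the value table, 23 with only bright probes, 573 with Benjamini-Hochberg, 27 with trend and robust estimation and 25 without the medium as a term. For the second step 3 became 5 with no offset, 31 with spike-in centring, 6 with only bright probes, 148 with Benjamini-Hochberg and 5 without the medium. For the third, 1 became 2 with median scaling, 19 with spike-in centring, 15 with Benjamini-Hochberg, and 0 with an offset of 16 and with none, the processed signal, the value table, the mean over probes and trend and robust estimation. For the medium, 0 became 2 with no offset, 2 with the processed signal and 7 with spike-in centring. The cause was not tested.

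At single times 80 of 104 differences and 120 of 156 steps moved by less than the SD over probes. That yardstick is wide for some values, as 1.14 for the first step of ARAD1C17776g with PA. The sign was kept in 87 of the 104 differences and in 143 of the 156 steps. The choice of only probes above background on every array left no probe of ARAD1A19074g. For ARAD1C17776g and ARAD1A05764g it left every probe, so their values could not move and count among those that did not. The labels give no replicate numbers, so arrays were paired by harvest time alone, which was a block in the fit and the pair in the sign-flip test. Depth limits ARAD1A19074g, whose probes were mostly not well above background.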
